A study of Mus musculus with 28 samples.

Results

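Transcripts of 6 genes known from peripheral nerve were followed through mouse skin: Ngfr, Sox10, Mbp, Pmp22, Cdh19 and Erbb3. They were selected from results already known for these libraries, and they are 6 of the 51976 genes that both deposited count tables hold under the same Ensembl identifier. The contrast from which Ngfr was chosen is not recorded. Ngfr is treated throughout as chosen from its difference between knockout and wild-type skin after ultraviolet light. This was inferred from its place among the few genes that passed there. That contrast and those built on the same libraries are therefore given for it as a description, without a test. The other 5 members are known for their place in Schwann cells, and all 6 passed the filter on low counts in both tables.

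Ngfr encodes the low-affinity neurotrophin receptor p75, which binds neurotrophins and is carried by immature and non-myelinating Schwann cells, by some sensory axons and by parts of the hair follicle. Sox10 is the transcription factor that defines the Schwann cell and melanocyte lineages of the neural crest. Erbb3 is the receptor through which axonal neuregulin sustains Schwann cells, and it is also made by keratinocytes. Cdh19 is a cadherin of Schwann cell precursors and mature glia, Mbp is a protein of compact myelin, and Pmp22 is a myelin membrane protein that fibroblasts and other cells make as well. In whole skin a lower level can mean fewer cells of a type or less RNA per cell, and these cannot be told apart.

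Both experiments concerned Vsir, the gene of the inhibitory immune checkpoint VISTA, in whole skin of 12-week-old female mice whose hair was removed 5 days before exposure. The whole-body experiment had 3 libraries in each of 4 groups: WT mice without UV (WT_NoUV), WT mice after 500 mJ/cm2 of UVB (WT_UV), Vsir-/- mice without UV (KO_NoUV) and Vsir-/- mice after the same dose (KO_UV). The keratinocyte experiment had 4 libraries in each of 4 groups. These were controls titled Vsirfl/fl (FL_NoUV and FL_UV) and K14creVsirfl/fl mice (cKO_NoUV and cKO_UV). In the latter the keratin 14 promoter directs Cre to keratinocytes. Skin was taken 3 h after exposure by the titles and 1 day after it by the protocol for treatment. The 2 experiments carry different batch labels and were fitted apart, and levels set side by side across them are from tables normalized separately.

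The promoter of Ngfr is shown because Ngfr was the member with the largest difference between genotypes. It is the RefSeq entry for GRCm38.p6, chr11:95587649-95587948, minus strand, from 250 bases before to 50 bases after the start of transcription, written 5′ to 3′ with each GC box (GGGCGG, either strand) in capitals.
Ngfr promoter: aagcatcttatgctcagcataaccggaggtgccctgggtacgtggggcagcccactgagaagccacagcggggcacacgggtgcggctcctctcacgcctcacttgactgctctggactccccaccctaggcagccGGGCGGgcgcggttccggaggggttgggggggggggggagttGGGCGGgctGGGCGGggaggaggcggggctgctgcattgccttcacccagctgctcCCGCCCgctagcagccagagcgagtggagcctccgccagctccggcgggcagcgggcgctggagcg
It held 4 GC boxes, a motif that 35.7% of 32851 mouse promoters of this length hold at least once. Its GC content was 71.7%, against a median of 52.7% over all promoters. The E-box letters CANNTG matched at 2 positions, and 72.3% of all promoters hold such a match. Neither the SOX letters ACAAAG nor the AP-1 letters TGANTCA occurred on either strand in this window, and 18.7% and 7.81% of all promoters hold them. Of the 6 members, 2 (Ngfr and Pmp22) had an entry among these promoters.

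Libraries of the whole-body experiment held 30.47 to 43.84 M counts and those of the keratinocyte experiment 7.12 to 31.14 M. Vsir was 5.07 to 6.87 CPM (counts scaled to the size of each library) in KO_NoUV and 34.5 to 46.1 CPM in WT_NoUV, which matched the labels. In whole skin of the keratinocyte experiment Vsir did not differ by genotype in the test (log2 difference 0.41 ± 0.32 (SE) without UV, adjusted p = 0.923), so the deletion in keratinocytes could not be checked at this level. Libraries 1 of FL_NoUV and 3 of cKO_UV were shallow, with 7.12 and 7.51 M counts. In 4 libraries of the keratinocyte experiment (FL_NoUV 4, cKO_NoUV 1, FL_UV 1 and FL_UV 4) summed keratins and other genes of the growing hair follicle exceeded 1000 CPM, reaching 9261 CPM in cKO_NoUV 1, and the other 12 libraries ran from 24.9 to 655.6 CPM. Hoxc10, a gene of posterior body position picked after its values were seen, had 0 to 2 counts in every library without UV of the whole-body experiment and 137 to 272 in every library after UV. In the keratinocyte experiment it had 2 to 115 counts in cKO_NoUV and 0 to 2 in cKO_UV. The Hoxc10 level therefore cannot be told apart from UV in WT and KO skin, and its part in the results below was not tested.

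Schwann cell transcripts were present in all 28 libraries. Drp2, which anchors the myelin sheath, was 11.4 to 36.5 CPM in the whole-body experiment and 7.55 to 37.8 CPM in the keratinocyte experiment. Per kilobase of exon, Pmp22 had the highest level of the 6 members in the whole-body experiment (median 65.2 CPM per kb), followed by Erbb3 (15.9), Mbp (7.15), Cdh19 (3.38), Ngfr (3.29) and Sox10 (1.07). Cdh19 and Ngfr were not separated beyond their spread, from 1.13 to 4.18 and from 0.872 to 4.61 CPM per kb. In the keratinocyte experiment the medians per kb were 50.7 for Pmp22, 34.1 for Erbb3, 4.92 for Mbp, 4.79 for Sox10, 2.94 for Ngfr and 2.39 for Cdh19. Mbp and Sox10 overlapped there, as did Ngfr and Cdh19.

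**Figure D1:**
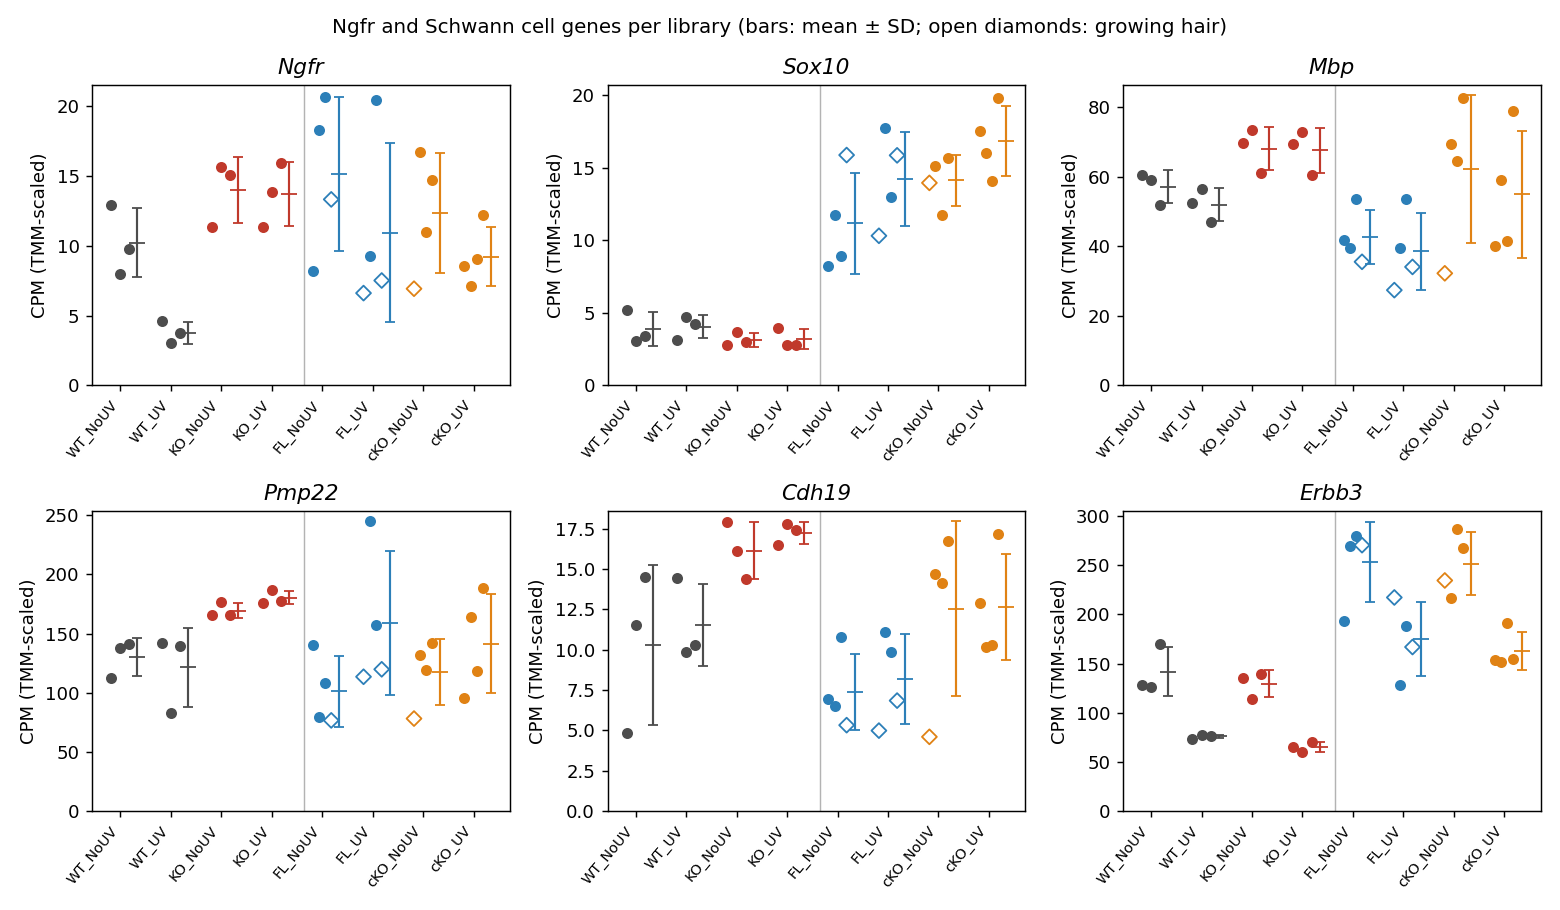
Level of each member in every library, in TMM-scaled CPM on linear axes from 0, for the 8 groups; each point is 1 library, the bars are mean ± SD, and open diamonds mark the 4 libraries with growing hair. The 3 WT_UV libraries are the lowest for Ngfr, at 3.01 to 4.58 CPM, and Erbb3 is lower after UV in both genotypes of the whole-body experiment.

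Ngfr was low in WT skin after UV and high in the other 3 groups of the whole-body experiment. It was 12.9, 7.98 and 9.79 CPM in the WT_NoUV libraries and 4.58, 3.01 and 3.76 CPM in the WT_UV libraries. The 2 groups did not overlap, and the log2 difference was -1.44 ± 0.24 (SE). In KO_NoUV it was 11.3, 15.7 and 15.1 CPM, and in KO_UV 11.4, 13.9 and 15.9 CPM. These groups overlapped almost completely, with a log2 difference of -0.03 ± 0.23. After UV all 3 KO libraries stood above all 3 WT libraries, by 1.86 ± 0.24 on the log2 scale, a fold of 3.63. The UV difference in KO minus that in WT was 1.41 ± 0.33 on the log2 scale. These values share the libraries on which Ngfr was chosen and are given as a description. Of the 20365 genes tested, 0.0442% (9 genes) were called between KO and WT after UV, Ngfr among them, and without WT_UV 2, KO_UV 2 or KO_UV 3 Ngfr was not called. DESeq2 called 444 genes in that contrast. Of the same genes 0% were called for the difference of the UV differences. In the latter, edgeR gave 313 genes an unadjusted p under 0.05 and DESeq2 called 0.

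Without UV, a comparison that did not choose Ngfr, the receptor was 10.2 ± 2.48 CPM (SD, n = 3) in WT and 14 ± 2.35 CPM (SD, n = 3) in KO skin. The groups overlapped, and the log2 difference of 0.45 (95% interval -0.04 to 0.95) did not pass the test of edgeR (adjusted p = 0.35). The other genes called between KO and WT after UV were Mmd2, Gm20559, Lyve1, Msr1, Timd4, Mettl7a1 and mt-Nd3, which were higher in KO, and Vsir, which was lower. Lyve1, Timd4 and Msr1 are surface receptors of resident macrophages. The 4 macrophage markers summed to 511.9 to 847.9 CPM in KO_UV and 353.8 to 504 CPM in WT_UV, and the 6 fibroblast markers to 9676 to 11840 and 5606 to 7658 CPM, with no overlap in either list and no marker at 0. Basal keratinocyte markers did not overlap either and were lower in KO_UV, 4339 to 5514 CPM, than in WT_UV, 6050 to 10920 CPM. The list of non-myelinating, immature and repair Schwann cells summed to 139.3 to 156.8 CPM in KO_UV and 119.6 to 133.5 CPM in WT_UV. A sum is weighted to its abundant genes. Over the 14 tested genes of this list the median log2 difference was 0.055, from -2.469 to 0.609, against 0.027 over all genes. Without UV the macrophage and fibroblast lists overlapped between the genotypes. The part of these cells in the Ngfr difference was not tested.

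Ngfr in the keratinocyte experiment varied as much within groups as between them. It was 8.21, 18.3, 20.6 and 13.3 CPM in FL_NoUV and 6.61, 9.24, 20.4 and 7.51 CPM in FL_UV. In cKO_NoUV it was 6.92, 16.7, 11 and 14.7 CPM, and in cKO_UV 8.52, 7.13, 9.05 and 12.2 CPM. All 4 groups overlapped. The log2 difference after UV was -0.47 (95% interval -1.25 to 0.30) in FL and -0.42 (-1.20 to 0.36) in cKO skin, with adjusted p-values of 0.476 and 0.516. The cKO group differed from FL by -0.30 (-1.08 to 0.47) without UV and by -0.25 (-1.03 to 0.53) after UV, with adjusted p-values of 0.946 and 0.943. The UV difference in WT minus that in FL was -0.94 (-1.92 to 0.05). It rests on the WT_UV libraries and is given without a test. Within FL_UV, library 3 stood apart from the others at 20.4 CPM, and without it the difference by UV in FL was -0.98 on the log2 scale. Without the 4 libraries with growing hair it was -0.09.

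Erbb3 was lower on average after UV in all 4 comparisons and was called in 3 of them, WT, KO and cKO. In the whole-body experiment it was 127.9, 126.7 and 170.4 CPM in WT_NoUV and 73.9, 77.6 and 76.4 CPM in WT_UV. The KO_NoUV libraries had 135.5, 114.3 and 139.3 CPM and the KO_UV libraries 65.4, 59.6 and 70.1 CPM. No library after UV reached the lowest library without UV in either genotype. The log2 change was -0.90 ± 0.14 in WT (adjusted p = 0.00142) and -0.996 ± 0.14 in KO skin (adjusted p = 0.000603). These changes did not differ detectably between the genotypes (difference -0.10, 95% interval -0.53 to 0.34, adjusted p = 1).

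Falls of this kind were common in these libraries. In WT skin 9.84% of the genes tested were lower and 8.91% higher after UV, 18.7% in all. In KO skin 11.1% were lower and 11.3% higher, 22.4% in all. The Hoxc10 level went with UV in both, as given above, and its part in these shares was not tested. Among the 6 members, 2 were called lower in WT (Ngfr and Erbb3) and 1 in KO (Erbb3), and 0 were called higher in either. The call of Ngfr in WT rests on the WT_UV libraries on which Ngfr was chosen, so it is a description and not a test. For the 5 members whose UV comparisons did not share the choice of Ngfr, Erbb3 was the one called in each genotype.

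Erbb3 in the keratinocyte experiment was 193.3, 270, 280.1 and 270.5 CPM in FL_NoUV and 217.3, 128.4, 187.9 and 166.9 CPM in FL_UV. These groups overlapped through 1 library of each, FL_NoUV 1 and FL_UV 1, and the log2 difference of -0.53 ± 0.16 had an adjusted p of 0.0556. In cKO_NoUV it was 234.6, 217.2, 287.1 and 268.1 CPM and in cKO_UV 153.3, 151.8, 191.2 and 155.1 CPM, without overlap. The log2 change in cKO skin was -0.63 ± 0.16, with an adjusted p of 0.023. Without both shallow libraries, FL_NoUV 1 and cKO_UV 3, it was -0.65 in FL (adjusted p = 0.0216) and -0.73 in cKO (adjusted p = 0.0135). The call in cKO was lost on leaving out cKO_NoUV 3 or 4 or cKO_UV 1, 2 or 4, with adjusted p-values up to 0.0741, and a call in FL appeared on leaving out FL_NoUV 1 or FL_UV 1. UV called 7.62% of genes in FL (3.52% higher, 4.09% lower) and 9.72% in cKO (4.57% higher, 5.15% lower). Of the members 0 were called in FL by edgeR, 2 had an unadjusted p under 0.05 (Pmp22 and Erbb3), and DESeq2 called 1. In cKO 1 was called, Erbb3.

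The UV difference of Erbb3 in WT minus that in FL was -0.35 (95% interval -0.81 to 0.12, adjusted p = 0.559), so a larger fall in one experiment than in the other was not shown. In that joint comparison 1.2% of 21851 genes were called and 0 of the members. None had an unadjusted p under 0.05 there, and DESeq2 called 0. Genotype differences in Erbb3 passed no test: -0.13 (-0.43 to 0.18) for KO against WT without UV, -0.01 (-0.35 to 0.33) for cKO against FL without UV and -0.11 (-0.45 to 0.24) after UV. For KO against WT after UV, given as a description, Erbb3 was lower in all 3 KO libraries, 59.6 to 70.1 against 73.9 to 77.6 CPM, by a log2 difference of -0.22 (-0.53 to 0.08). Erbb2, the partner with which Erbb3 signals, fell after UV as well in WT (-0.88 ± 0.205, adjusted p = 0.0109) and in KO (-1.15 ± 0.21, adjusted p = 0.00207).

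**Figure D2:**
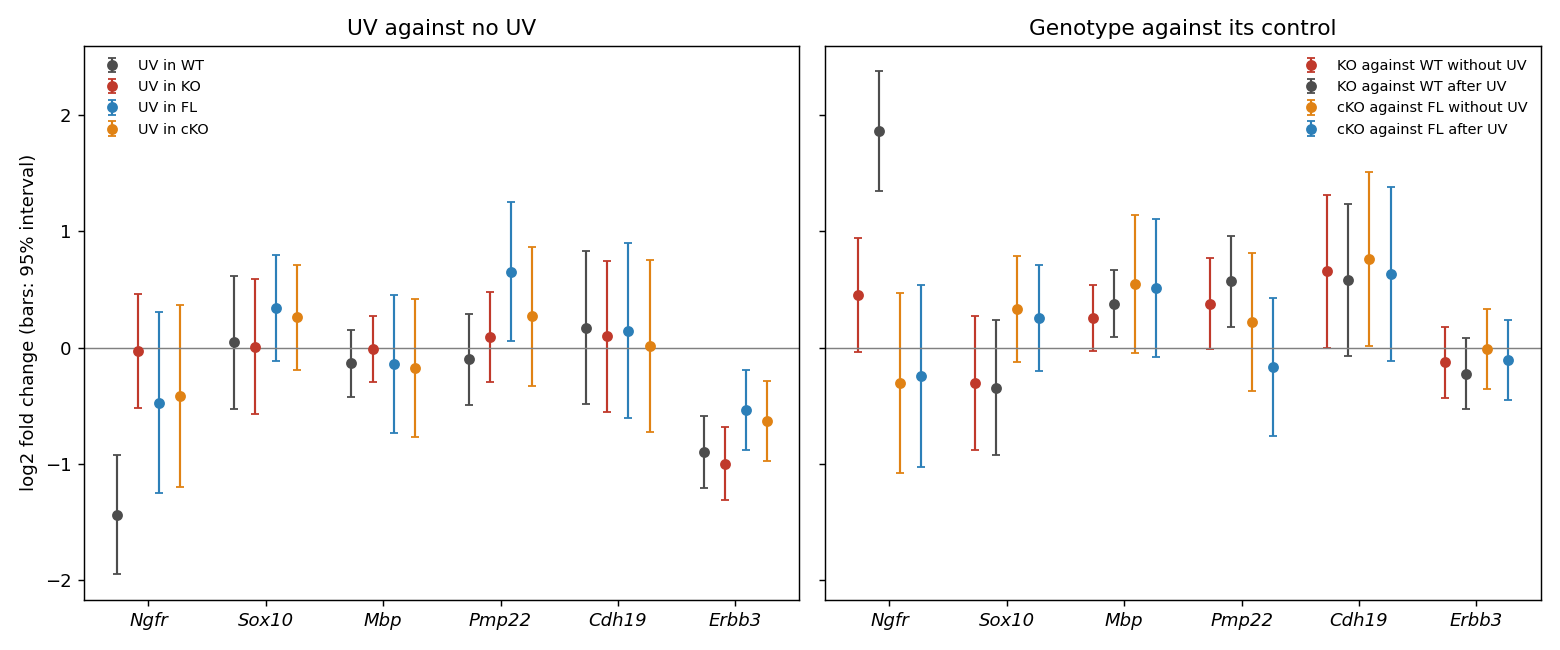
Log2 fold change of each member with its 95% interval, after UV in the 4 genotypes (left) and for each genotype against its control (right). Ngfr in KO against WT after UV, at 1.86, and Ngfr after UV in WT, at -1.44, lie farthest from 0, and Erbb3 lies below 0 after UV in all 4 genotypes.

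Sox10 was the least abundant member in the whole-body experiment, with 81 to 237 counts per library. It was 5.22, 3.09 and 3.37 CPM in WT_NoUV, 3.16, 4.71 and 4.21 in WT_UV, 2.77, 3.70 and 3.01 in KO_NoUV and 3.97, 2.82 and 2.76 CPM in KO_UV. The 4 groups overlapped, and the log2 difference by UV was 0.05 (-0.53 to 0.62) in WT and 0.01 (-0.57 to 0.59) in KO, with adjusted p-values of 0.928 and 0.991. In the keratinocyte experiment it was 8.21, 11.7, 8.90 and 15.9 CPM in FL_NoUV, 10.3, 17.8, 13 and 15.9 CPM in FL_UV, 14, 15.1, 11.8 and 15.7 CPM in cKO_NoUV and 17.5, 16, 14.1 and 19.9 CPM in cKO_UV. The difference by UV was 0.34 (-0.12 to 0.79) in FL and 0.26 (-0.19 to 0.71) in cKO, with adjusted p-values of 0.375 and 0.486. The lowest library of the keratinocyte experiment, at 8.21 CPM, stood above the highest of the whole-body experiment, at 5.22 CPM. Batch, mouse line and counting go with the experiment, and their part in this gap cannot be told apart. Melanocytes, which also make Sox10, had markers that summed to 82.5 to 295.5 CPM in the whole-body and 123.9 to 1021 CPM in the keratinocyte experiment.

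Mbp and Pmp22 were higher in KO than in WT skin without overlap in either treatment, and did not pass the test. The share of all genes whose KO and WT libraries separate without overlap was not counted. Differences between these genotypes were common before adjustment. At an unadjusted p under 0.05 edgeR had 15.8% of all genes without UV and 15.1% after UV. The separation of these members is therefore given as a description. Mbp was 60.6, 59.1 and 51.8 CPM in WT_NoUV and 69.8, 73.5 and 61.2 CPM in KO_NoUV. The difference of 0.25 (-0.03 to 0.54) on the log2 scale had an adjusted p of 0.363. After UV it was 52.6, 56.4 and 47.1 CPM in WT and 69.6, 72.8 and 60.4 CPM in KO, a log2 difference of 0.38 (0.09 to 0.67). Pmp22 was 112.1, 137.7 and 141.5 CPM in WT_NoUV and 165.6, 176.9 and 165.5 CPM in KO_NoUV, a difference of 0.38 (-0.01 to 0.77) with an adjusted p of 0.329. After UV it was 141.6, 83.2 and 139.8 CPM in WT and 176.2, 187 and 177.9 CPM in KO, a log2 difference of 0.57 (0.18 to 0.96). Values after UV are from the contrast on which Ngfr was chosen and carry no test.

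Without UV, 0.00982% of genes (2 of 20365) were called between KO and WT, and 0 of the members. DESeq2 called 584 genes, and edgeR gave 3219 an unadjusted p under 0.05. Among the members edgeR had 1 at that unadjusted p, Cdh19, and DESeq2 called 0. Cdh19 was 4.83, 11.5 and 14.5 CPM in WT_NoUV and 17.9, 16.1 and 14.4 CPM in KO_NoUV, which overlapped. After UV it was 14.5, 9.84 and 10.3 CPM in WT and 16.5, 17.8 and 17.4 CPM in KO, without overlap (0.58 on the log2 scale, -0.07 to 1.24). Its low value in WT_NoUV came from library 1. All 12 libraries carried 1 batch label. Sums of fibroblast markers were 4737 to 7632 CPM in WT_NoUV and 6403 to 7801 CPM in KO_NoUV and overlapped. Without UV 3 of the 9 lists of other cell types did not overlap between the genotypes, all higher in KO. How often a list of any genes separates in this way was not counted. Skeletal muscle markers summed to 16540 to 22240 CPM in KO_NoUV and 7819 to 13890 CPM in WT_NoUV, endothelial markers to 240.1 to 247.9 and 188.3 to 225 CPM, and T cell markers to 29.4 to 35.7 and 15.6 to 23.7 CPM. Their part in the levels of Mbp, Pmp22 and Cdh19 was not tested. The sum of the 14 genes of the myelin list, which holds none of the members, went the other way, with 548.2 to 663.1 CPM in KO_NoUV and 685.2 to 1006 CPM in WT_NoUV.

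Mbp, Pmp22 and Cdh19 passed no test for UV in the whole-body experiment. Their log2 differences were -0.14, -0.10 and 0.17 in WT and -0.01, 0.09 and 0.10 in KO, and the adjusted p-values were 0.529, 0.743, 0.747, 0.962, 0.766 and 0.859 in that order. The 95% intervals were narrowest for Mbp, -0.42 to 0.15 in WT and -0.30 to 0.28 in KO, and widest for Cdh19, -0.49 to 0.83 in WT and -0.55 to 0.75 in KO.

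In the keratinocyte experiment Mbp, Cdh19 and Pmp22 were lower in the libraries with growing hair than in the other libraries of the same group. For Pmp22 in FL_NoUV the gap was small, 76.6 CPM in library 4 and 79.4 CPM in library 2. In cKO_NoUV library 1, with growing hair, Mbp was 32.3 CPM, against 69.6, 64.6 and 82.6 CPM in the other 3 libraries. Cdh19 was 4.602 CPM there, against 14.7, 14.1 and 16.7 CPM. Pmp22 was 78.2 CPM, against 131.5, 118.8 and 141.6 CPM. Library 4 of FL_NoUV was the lowest of its group for all 3 genes, and library 1 of FL_UV likewise. In FL_UV library 4, also with growing hair, Mbp was 34.1 CPM, Cdh19 6.85 CPM and Pmp22 119.8 CPM. This Pmp22 level was below FL_UV 2 (245.1 CPM) and FL_UV 3 (157.1 CPM), though above FL_NoUV 2 (79.4 CPM) and FL_NoUV 3 (108.2 CPM). Erbb3 showed no such pattern, since FL_NoUV 4 (270.5 CPM) lay within the range of its group and FL_UV 1 (217.3 CPM) was the highest of its group. Summed melanocyte markers were 1021 CPM in cKO_NoUV 1 and 128.4 to 147.7 CPM in the rest of that group. The part of hair growth in these levels was not tested.

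**Figure D3:**
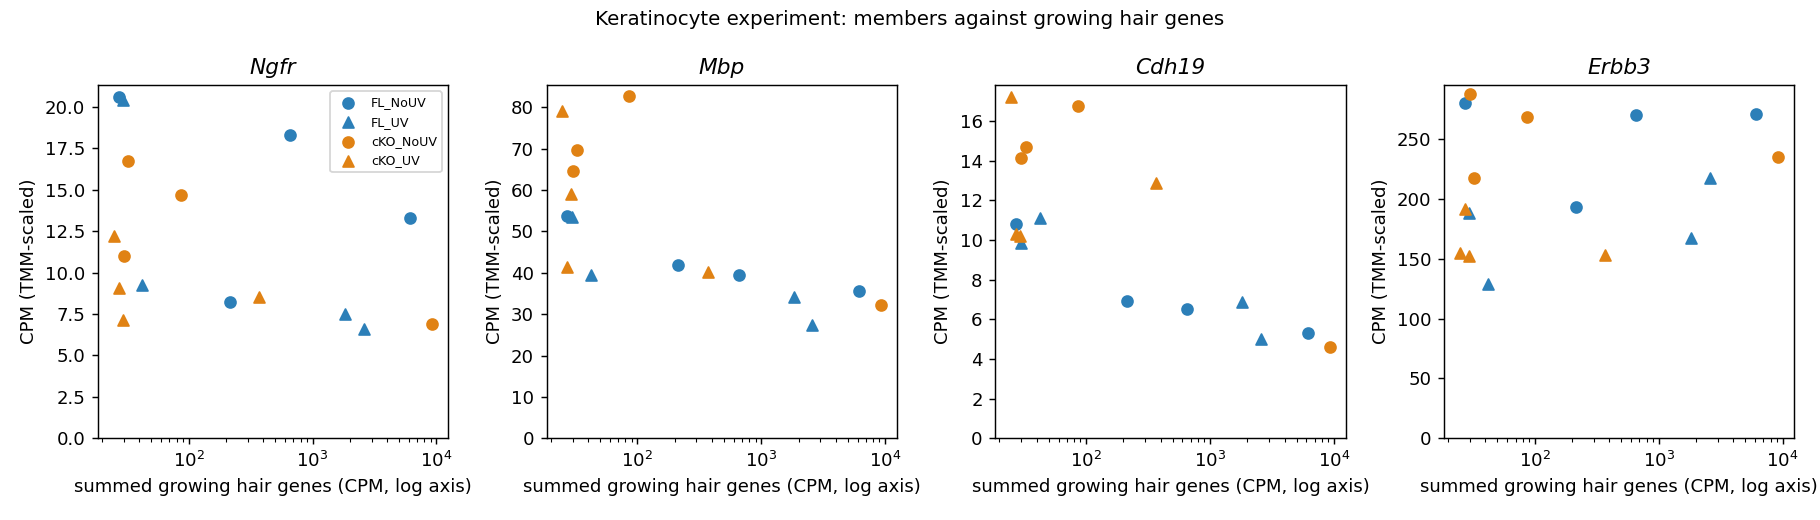
Level of Ngfr, Mbp, Cdh19 and Erbb3 (CPM, linear axes from 0) against the summed genes of the growing hair follicle (CPM, log axis) in the 16 libraries of the keratinocyte experiment; circles are libraries without UV and triangles libraries after UV. The 4 libraries above 1000 CPM lie at 27.4 to 35.6 CPM for Mbp and at 4.602 to 6.85 CPM for Cdh19.

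Neither genotype nor UV called Mbp, Pmp22 or Cdh19 in that experiment. Mbp was 41.9, 39.4, 53.7 and 35.6 CPM in FL_NoUV, 27.4, 39.6, 53.5 and 34.1 CPM in FL_UV and 40.2, 59.1, 41.4 and 79 CPM in cKO_UV. Cdh19 was 6.94, 6.51, 10.8 and 5.33 CPM in FL_NoUV, 4.99, 11.1, 9.83 and 6.85 CPM in FL_UV and 12.9, 10.2, 10.3 and 17.2 CPM in cKO_UV. Both were higher on average in cKO than in FL skin; the groups overlapped in each pair. The cKO minus FL difference of Cdh19 was 0.76 (0.01 to 1.51) without UV and 0.63 (-0.12 to 1.38) after UV, with adjusted p-values of 0.923 and 0.865. For Mbp it was 0.55 (-0.05 to 1.14) and 0.51 (-0.09 to 1.11), with adjusted p-values of 0.923 and 0.865.

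Pmp22 ran from 76.6 to 140.5 CPM in FL_NoUV and from 113.5 to 245.1 CPM in FL_UV, where library 2 was the highest. Its log2 difference by UV in FL was 0.65 (0.06 to 1.25), with an adjusted p of 0.178, and in cKO 0.27 (-0.33 to 0.86), with an adjusted p of 0.598. Between cKO and FL, 0% of genes were called without UV, 0% after UV and 0% for the difference of the UV differences, and 0 of the members in each. At an unadjusted p under 0.05 edgeR had 928, 1046 and 248 genes, with 1 member without UV (Cdh19) and 0 in the other comparisons, and DESeq2 called 7, 2 and 0 genes and 0 of the members. For KO against WT the UV differences of Sox10, Mbp, Pmp22 and Cdh19 differed by -0.04, 0.12, 0.19 and -0.07 on the log2 scale, each with an adjusted p of 1.

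Other genes of nerve were read from 5 lists of 61 genes, of which 53 were tested in the whole-body and 50 in the keratinocyte experiment. After UV 6 were lower and 0 higher in WT skin (11.3% of those tested), and 8 were lower and 3 higher in KO skin (20.8%), against 18.7% and 22.4% of all genes. Without WT_NoUV 1 the count in WT was 10, and without KO_NoUV 1 or KO_UV 2 that in KO was 7. With only the groups compared in the fit the counts were 2 in WT and 20 in KO, and with DESeq2 9 and 12, so no order against the share of all genes is read from them. The neurotrophins Bdnf and Ntf3 fell in both genotypes. Bdnf was 1.54 ± 0.46 CPM (SD, n = 3) in WT_NoUV and 0.71 ± 0.28 CPM in WT_UV, a log2 change of -1.11 (adjusted p = 0.0434), and its change in KO was -1.53 (adjusted p = 0.0071). Ntf3 fell from 3.15 ± 0.78 to 1.14 ± 0.55 CPM in WT (-1.47, adjusted p = 0.0115) and from 4.45 ± 0.69 to 1.07 ± 0.10 CPM in KO (-2.05, adjusted p = 0.00154). Gdnf, a growth factor of repair Schwann cells, fell by 1.14 on the log2 scale in WT (adjusted p = 0.025) and by 2.09 in KO (adjusted p = 0.000892).

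Among regulators of the lineage, Tfap2a, a factor of the neural crest that keratinocytes also make, changed by -1.17 ± 0.15 in WT (adjusted p = 0.000455) and by -1.53 ± 0.15 in KO (adjusted p = 8.79e-05) on the log2 scale. Pou3f1, the factor that takes Schwann cells toward myelination and is also made in epidermis, changed by -1.06 in WT (adjusted p = 0.00529) and -0.88 in KO (adjusted p = 0.0111). Egr2, which switches on myelin genes, was called in KO (-0.86, adjusted p = 0.00637), as was Nab1, its cofactor, which was not among the named genes by rule and was picked after its values were seen (-0.53, adjusted p = 0.048). Of the 14 genes of the myelin list 2 rose in KO, among them Drp2, from 19.2 ± 3.31 to 32.5 ± 5.59 CPM (0.76, adjusted p = 0.0209). In WT 0 of the 14 were called (Drp2 0.59, adjusted p = 0.0681). The median over the list was 0.40 in KO and 0.14 in WT, against 0.02 and -0.01 over all genes. Whether the genotypes differ in Drp2 was not shown, since the difference of the UV differences called 0 of the 53 genes, with 1 at an unadjusted p under 0.05 and 0 by DESeq2.

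Most axon genes had few counts in these libraries. Of 10 listed, 4 were tested in the whole-body and 2 in the keratinocyte experiment. The exception, named after its values were seen, was Stmn2, a protein of growing axons, with 84 to 234 counts in the libraries of the whole-body experiment. Calca, the peptide of sensory axons, had 2 to 6 counts in KO_NoUV libraries and 12 to 29 in KO_UV, and was called higher (2.61 on the log2 scale, adjusted p = 0.0113). In WT it had 3 to 5 and 8 to 17 counts (1.73, adjusted p = 0.0781). In the keratinocyte experiment UV called 0 nerve genes in FL, where 8 had an unadjusted p under 0.05 and DESeq2 called 1. In cKO 2 were called (4% of those tested): Artn, a ligand for sensory neurons, with 3 to 10 counts before and 11 to 32 after UV (2.20, adjusted p = 0.0444), and Uchl1, a neuronal enzyme, with 0 to 3 and 2 to 16 counts (2.79, adjusted p = 0.0286). On leaving out cKO_NoUV 1, 3 or 4 or cKO_UV 4 the count in cKO was 0, without cKO_NoUV 2, cKO_UV 1 or cKO_UV 2 it was 1, and without both shallow libraries it was 4. Genotype called 0 nerve genes in either experiment and treatment by edgeR. At an unadjusted p under 0.05 there were 7 for KO against WT without UV, 15 after UV, 7 for cKO against FL without UV and 5 after UV, and DESeq2 called 0, 4, 0 and 0.

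**Figure D4:**
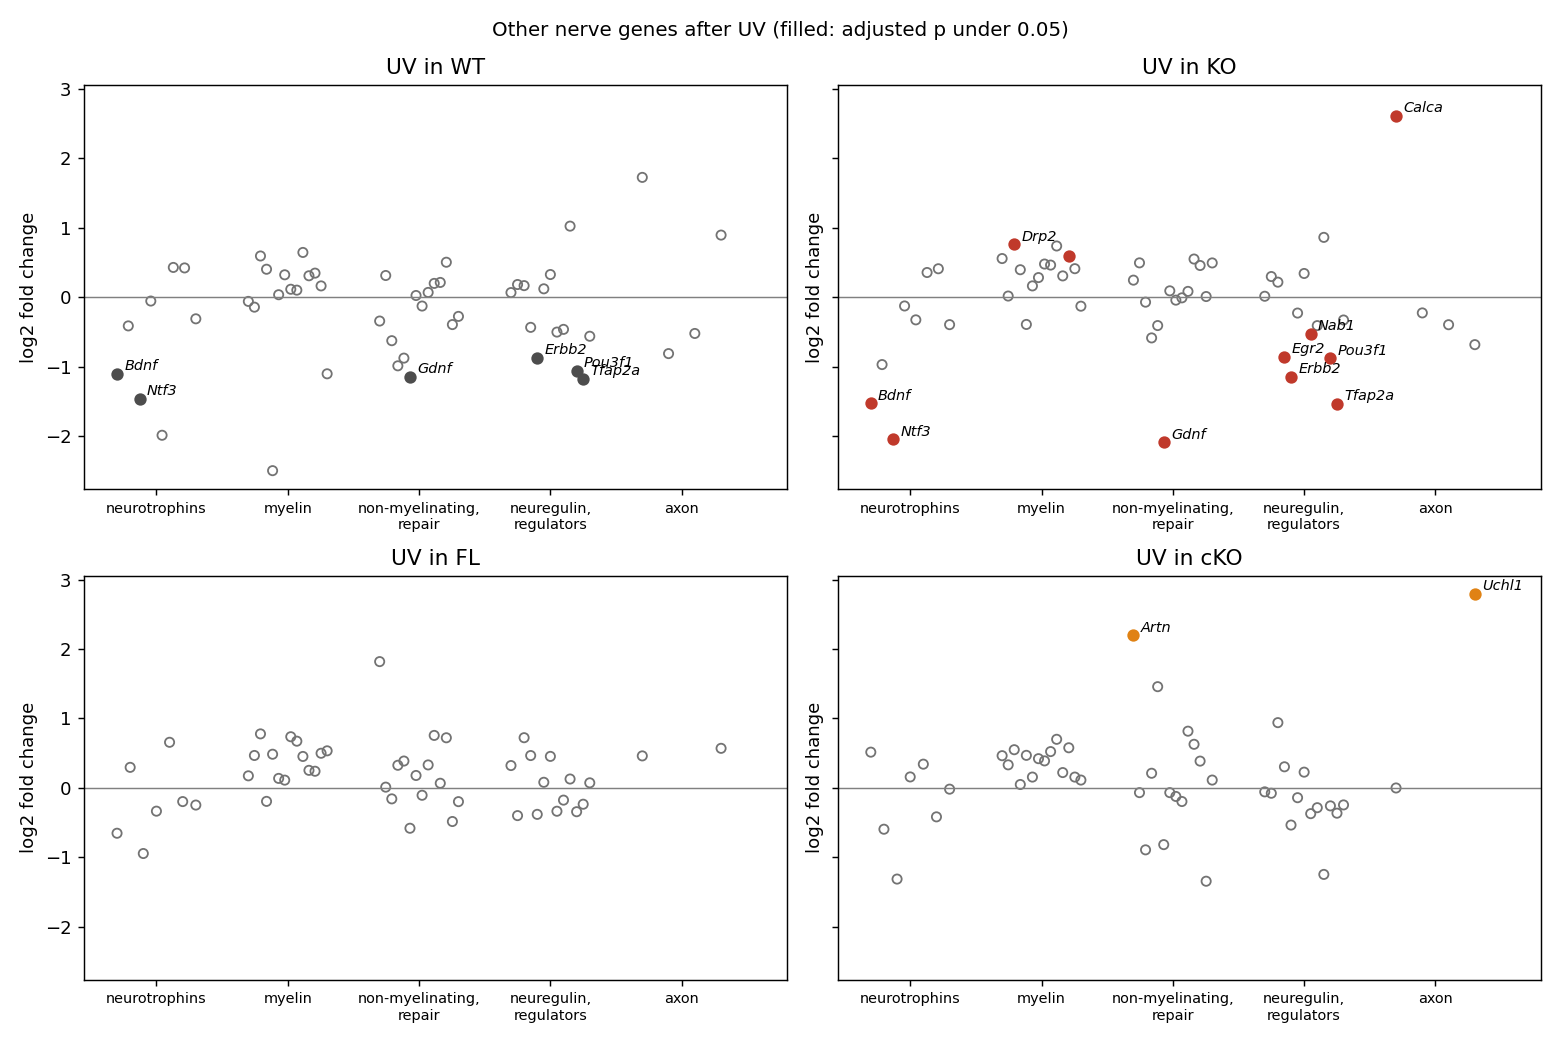
Log2 fold change after UV of each tested gene of 5 nerve lists in the 4 genotypes; each point is 1 gene, filled where edgeR's adjusted p was under 0.05, with the names of genes given in the text. Filled points lie mostly below 0 in WT and KO (6 of 6 and 8 of 11), and the 2 in cKO lie above 0.

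The genes whose level over the 28 libraries was most like that of Ngfr, with each experiment centred at its own mean, were A4galt (Pearson r = 0.79), P2ry13 (0.78), Snx2 (0.75), Ube2q2 (0.74) and Rab32 (0.74), among 14475 genes. P2ry13 is a purine receptor of macrophages and microglia. Within the experiments its r with Ngfr was 0.94 over 12 and 0.57 over 16 libraries. The genes most like Sox10 were Flywch1 (0.80), Zc3h10 (0.75), Zdhhc8 (0.73), Pex6 (0.73) and Ppp2r5b (0.72). None of these 10 is in the nerve lists. For Cdh19, ranked after its values were seen, the most alike was Kcna2 (0.94), a potassium channel of myelinated axons. Libraries share groups, depth and composition, so these values describe the tables and carry no test.

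In GRCm38 and GENCODE M21, the single Ngfr model lies at chr11:95568818-95587735 on the minus strand with 6 exon blocks, and Erbb3 at chr10:128567523-128589652 on the minus strand with 28. Pmp22 lies at chr11:63128982-63159547 on the plus strand, Sox10 at chr15:79154908-79165240 on the minus strand and Cdh19 at chr1:110888326-110977584 on the minus strand. No other annotated gene shares exon bases with any of the 6 members. Mbp has 16 annotated transcripts, and its locus is known to encode the Golli proteins of other cells as well as myelin basic protein.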

How the data were processed

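RNA from 28 mouse skin samples was sequenced after ribosomal RNA depletion with a stranded kit, per the labels. Per the submitters' processing notes, the tools were cutadapt 4.6, HISAT2 2.1.0 and featureCounts of Subread, and the build was GRCm38; the strand setting of the counting is not given in the sources used here. The deposited values are raw counts per gene, and the deposited gene length, another value of each row, was used for levels per kb. Positions in the keratinocyte table are not those of GRCm38, so tables were joined by Ensembl identifier, and 0 sample columns were left unused.

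The quasi-likelihood test of edgeR 4.0.16 (R 4.3.3) was run on the counts after filterByExpr and TMM, in robust mode, with the default prior count and 1 coefficient per group. Tests were two-sided, with Benjamini-Hochberg adjustment over all genes and a threshold of 0.05. A first run used a prior count of 3 in the fit and was replaced by the default, which left p-values as they were; log2 CPM kept a prior count of 3. Intervals are 95% and come from the SE of the fit. A called gene passed the adjusted threshold. Samples were grouped by title. The labels do not say that each replicate is a separate mouse, though the design text calls them biological replicates. Same-numbered libraries deviated together in UV in KO (r 0.13 to 0.18) and UV in cKO (0.23 to 0.49), where the block changed no call of a member. Duplicated libraries were looked for among 36 pairs and none was found (lowest chi-square per degree of freedom 23.86). DESeq2 1.42.0, its size factors, no filter, the 2 groups alone, the replicate block and leaving out libraries were alternatives. The fit was tested on simulated data.

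The members and lists were chosen with earlier results of these data known. Named genes were the 6 members, up to 3 called genes per nerve list and comparison with the smallest p, the 5 genes most like Ngfr and the 5 most like Sox10, and Vsir. The growing hair threshold, the left-out groups of libraries, Hoxc10 and the relations between genes and markers were chosen after values were seen. Some genes of the nerve lists are counted but not reported here by name.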

Additional observations from a re-analysis of the deposited data

Results flagged for a closer look

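Erbb3 had 1 library far from the other 3 in 2 of the 24 member and group combinations of 4 libraries; chance gives about 1 in 20. In FL_NoUV library 1 it was 193.3 CPM, and the other 3 were 270 to 280.1 CPM. In cKO_UV library 3 it was 191.2 CPM, and the other 3 were 151.8 to 155.1 CPM. These are the shallow libraries, with 7.12 and 7.51 M counts, and the part of depth was not tested.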

How the results depend on the processing

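The fall of Erbb3 in WT and KO was called under every alternative run (12 and 11), and Ngfr was higher in KO than in WT after UV by 1.71 to 1.998 on the log2 scale. The number of members called in KO against WT after UV, 1, ranged from 0 to 1 on leaving out a library, being 0 without WT_UV 2, KO_UV 2 or KO_UV 3; the member is Ngfr, which was chosen from this contrast, so the count is a description and supports nothing. For UV in FL it was 1, in place of 0, with DESeq2, with the replicate block and without the 2 shallow libraries, and ranged from 0 to 1 on leaving out a library. With the replicate block the Erbb3 difference in FL was -0.54 (adjusted p = 0.0343); the labels do not pair these libraries. For UV in cKO it ranged from 0 to 1. The number of nerve genes called was 2 (UV in WT), 20 (UV in KO) and 1 (UV in cKO) with only the groups compared in the fit, and in KO against WT after UV 4 with DESeq2 and 2 without a filter. For UV in FL it was 2 with the replicate block. The causes were not tested.

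Differences that changed sign were called neither as reported nor under the alternative that changed it. Without a filter Sox10 was -0.046 for UV in KO and Cdh19 -0.026 for UV in cKO. With the replicate block Sox10 was -0.004 for UV in KO, and the cKO minus FL UV difference was 0.035 for Mbp and 0.005 for Cdh19. Without both WT libraries numbered 3, Sox10 was -0.042 for UV in WT and 0.032 for KO minus WT, and Erbb3 0.045 for KO against WT without UV. Without the 4 libraries with growing hair, Mbp was 0.052 for UV in FL, Cdh19 -0.258 for UV in cKO, Erbb3 0.061 without UV and 0.047 after UV for cKO against FL, Ngfr -0.521 for cKO minus FL, and WT minus FL was -0.16 for Mbp and -0.169 for Cdh19. Without the shallow libraries cKO minus FL was 0.104 for Sox10 and 0.077 for Mbp. Leaving out each library in turn gave these lowest and highest values. Cdh19 ran from -0.177 to 0.523 for UV in WT, -0.031 to 0.391 in FL, -0.265 to 0.18 in cKO, -0.447 to 0.268 for KO minus WT, -0.404 to 0.051 for cKO minus FL and -0.319 to 0.356 for WT minus FL. Erbb3 ran from -0.201 to 0.044 for KO against WT without UV, -0.121 to 0.053 and -0.233 to 0.014 for cKO against FL without and after UV, and -0.219 to 0.022 for cKO minus FL. Mbp ran from -0.099 to 0.06 for UV in KO, -0.256 to 0.159 for cKO minus FL and -0.108 to 0.22 for WT minus FL. Ngfr ran from -0.177 to 0.056 for UV in KO, -0.429 to 0.24 for cKO against FL after UV and -0.142 to 0.544 for cKO minus FL. Pmp22 ran from -0.24 to 0.089 for UV in WT, -0.332 to 0.117 for cKO against FL after UV and -0.022 to 0.304 for KO minus WT. Sox10 ran from -0.105 to 0.315 for UV in WT, -0.212 to 0.131 in KO, -0.314 to 0.09 for KO minus WT and -0.299 to 0.043 for cKO minus FL. Member differences, numbers of nerve genes called and mean levels were also labelled together, and 1091 of these values stayed the same. For differences this meant the same direction and side of the threshold, for counts a similar count, and for levels a value within the SD. Among the differences, 84 changed sign, 5 gained a call and 8 lost one, and 22 of the counts and levels moved. Depth limits Sox10, Ngfr and Cdh19 most, with as few as 58, 58 and 49 counts in a library.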

Other observations

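Each member was also set against each other member and against 9 marker lists of other cell types, as log2 CPM less the group mean, within each experiment. A list entered as the mean log2 CPM of its tested genes, not as the summed CPM given above. This family of 138 relations was chosen after exploratory correlations in the same libraries had been seen. The adjustment over the family does not cover that choice, so the p-values below are a description and no relation is taken as shown. A relation that passed had an adjusted p under 0.05 within the family. Of 15 pairs of members 1 passed in the whole-body and 5 in the keratinocyte experiment, and of 54 relations with marker lists 7 and 17. In the keratinocyte experiment the libraries with growing hair stand apart, so only r without them is given for it, after the whole-body values. In the whole-body experiment WT_NoUV 3 and WT_UV 3 also stood apart for growing hair genes, at a summed 88.93 and 93.83 CPM. Both were kept in the values below. In the whole-body experiment Mbp ran against the mean of melanocyte markers over 12 libraries (Pearson r = -0.96, exact permutation p = 0.00154, adjusted p = 0.0251, and Spearman rho = -0.93, exact permutation p = 0.00154, adjusted p = 0.0273). All 1296 permutations of libraries within groups were used. Without the 2 libraries farthest from the median of the melanocyte mean, r was -0.94. Mbp ran with skeletal muscle markers, passing by r and not by rho (r = 0.86, exact permutation p = 0.00309, adjusted p = 0.0284; rho = 0.77, exact permutation p = 0.0108, adjusted p = 0.0626), and r was 0.84 without the 2 farthest libraries. Erbb3 ran against skeletal muscle markers (r = -0.89, exact permutation p = 0.00694, adjusted p = 0.0399; rho = -0.86, exact permutation p = 0.00694, adjusted p = 0.0499), with r = -0.84 without the 2 farthest. Mbp ran against growing hair genes (r = -0.78, exact permutation p = 0.00154, adjusted p = 0.0251; rho = -0.69, exact permutation p = 0.00386, adjusted p = 0.0355), with r = -0.69 without the 2 farthest. The other relations that passed did so by r and not by rho: Pmp22 with endothelial markers (r = 0.82, exact permutation p = 0.00926, adjusted p = 0.0456; rho = 0.64, exact permutation p = 0.13, adjusted p = 0.359), Cdh19 with T cell markers (r = 0.81, exact permutation p = 0.00694, adjusted p = 0.0399; rho = 0.83, exact permutation p = 0.0116, adjusted p = 0.0626), Cdh19 against adipocyte markers (r = -0.48, exact permutation p = 0.00849, adjusted p = 0.0434; rho = -0.69, exact permutation p = 0.0116, adjusted p = 0.0626) and Mbp against Erbb3 (r = -0.73, exact permutation p = 0.0108, adjusted p = 0.0497; rho = -0.64, exact permutation p = 0.0347, adjusted p = 0.141). Without the 2 farthest libraries r was 0.74, 0.68, -0.48 and -0.68 in that order. In the keratinocyte experiment without growing hair libraries, r of Mbp was -0.66 with melanocyte, 0.66 with skeletal muscle and -0.49 with growing hair genes. For Erbb3 with skeletal muscle it was -0.47, for Cdh19 with T cell markers 0.44 and for Pmp22 with endothelial markers 0.06. For Cdh19 with adipocyte markers (0.4) and Mbp with Erbb3 (0.11) the sign was opposite to that in the whole-body experiment. Permutations were two-sided.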
